A study of Mus musculus with 31 samples.

Results

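The miR-290 to miR-295 cluster is a group of miRNA hairpins on mouse chromosome 7, most of them transcribed together. The miRNAs described here are 3p arms of its hairpins, among which miR-292b-3p lies on the opposite strand to the others. They were taken by name, as every row of the small RNA-seq table that is called miR-290 to miR-295, with or without a letter, and ends in -3p. The rule found 6 miRNAs (miR-291a-3p, miR-291b-3p, miR-292b-3p, miR-293-3p, miR-294-3p, and miR-295-3p) of 507 in the table. Other 3p arms of the cluster had no row under such a name, so the shares given below leave them out. The 16 small RNA-seq libraries came from mouse embryonic stem cells (mESCs) of the line ES-E14TG2a, with 4 libraries for each of 4 genotypes, and each value is in TPM, which are read counts divided by length and scaled to 1 common total per library.

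WT mESCs were compared with CLIPΔ mESCs, in which both alleles lack the stretch of the *Ago2* 3'UTR where the RNA-binding protein Trim71 binds. *Ago2* KO mESCs carry a deletion in the coding region of *Ago2*, made with a pair of guide RNAs and grown from a single cell. *Ago2* KO/CLIPΔ mESCs carry both deletions. The study calls mESCs with an N-terminal FLAG tag on their own Trim71 the WT, and its cell line list gives the edited lines the same tag. All cells profiled were kept in 2i+lif, a medium that holds mESCs in the naive state. The labels call the libraries biological replicates and do not say which clone each came from, so the p-values measure the spread between these libraries only. As a check of which matched RNA-seq libraries lack Ago2, *Ago2* mRNA was at 28.2 and 21.6 TPM in the 2 WT libraries. It was at 27.3 and 20.3 TPM in the 2 CLIPΔ libraries, and between 1.51 and 2.87 TPM in the 8 libraries without Ago2. These values cannot tell WT from CLIPΔ libraries, or *Ago2* KO from *Ago2* KO/CLIPΔ libraries. Being from RNA-seq, they do not check the labels of the small RNA-seq libraries. Of 7 markers of naive mESCs, 6 had a row in the RNA-seq table, with values from 56.4 to 3262 TPM in all 12 libraries. The 5 markers of differentiated or primed cells with a row ranged from 0.023 TPM for *Pax6* to 110 TPM for *Nes*.

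A hairpin is cut by Dicer into a duplex, of which one strand, the 5p or the 3p arm, is usually kept by an Argonaute protein such as Ago2. The Argonaute-bound miRNA finds its targets mainly through its seed, the bases from position 2 to position 8 at its 5' end. The cluster is among the most abundant in mESCs, falls when the cells differentiate, and is known for promoting the rapid cell cycle of embryonic stem cells. It does so through members with the motif AAGUGC near the 5' end, which the miR-302 and miR-17 families also carry.

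The mature sequences from RefSeq (GRCm38.p6, which is mm10), 5' to 3', are shown because the 6 miRNAs carry 4 different seeds and because several are nearly the same outside the seed. The seed is in capitals.
miR-295-3p: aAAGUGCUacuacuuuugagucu
miR-294-3p: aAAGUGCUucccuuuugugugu
miR-291a-3p: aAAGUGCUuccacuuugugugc
miR-291b-3p: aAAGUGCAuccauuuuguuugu
miR-293-3p: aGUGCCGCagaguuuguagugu
miR-292b-3p: aAGAGCCCccaguuugaguau
The seed AAGUGCU was shared by miR-291a-3p, miR-294-3p, and miR-295-3p, and miR-291b-3p differed from it in the last base. Positions in the following are counted from 1 at the 5' end, with the base of the first-named miRNA first. Between miR-291a-3p and miR-294-3p there were 3 differences of 22 bases (A12C, C13U, and C22U), and between miR-291a-3p and miR-291b-3p there were 4 (U8A, C13U, G19U, and C22U). Counts of such near-identical miRNAs are uncertain where a read could be assigned to either, which bears most on the rare miR-291b-3p. Outside the cluster, miR-302b-3p and miR-302d-3p had the seed of miR-295-3p, and miR-350-5p had that of miR-291b-3p, among the 442 miRNAs of the table with a RefSeq sequence.

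In mm10, 5 of the 6 are read from the plus strand: miR-291a-3p at chr7:3218968-3218989, miR-291b-3p at chr7:3219529-3219550, miR-293-3p at chr7:3220390-3220411, miR-294-3p at chr7:3220691-3220712, and miR-295-3p at chr7:3220815-3220837. All of these lie within the single exon of *D7Ertd143e*, an lncRNA annotated from 3218784 to 3221015 on that strand. By contrast, miR-292b-3p, at chr7:3219198-3219218, is on the minus strand and overlaps miR-292a-5p, on the plus strand, by 19 bases. How the counting treated strand is not given in the sources used here, so reads of these arms cannot be told apart. For miR-292a-5p no value was given under that name. The *Nlrp12* gene lies on the minus strand, and its exon from 3218643 to 3219748 covers miR-291a-3p, miR-292b-3p, and miR-291b-3p.

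The reads behind the values could be recovered, since a value multiplied by the length of the miRNA less 1 was a whole multiple of one step in each library (99.1% to 100% of the lowest 25% of values were within 0.02 steps of a whole number). The count covers the 442 miRNAs with a RefSeq length, which held from 93.7% of the TPM (*Ago2* KO library 2) to 97.3% (WT library C), and leaves out the rest. By this count, the WT libraries held 5232467 to 8117123 miRNA reads and the CLIPΔ libraries 2989610 to 7597245. The *Ago2* KO libraries held 783645 to 1004104 and the *Ago2* KO/CLIPΔ libraries 831163 to 1259728. The libraries without Ago2 were thus shallower in every case, and their columns are numbered where those of the other genotypes are lettered. Whether Ago2 or a difference between these sets of libraries lies behind a value cannot be told apart, and this holds for every comparison below that sets cells with Ago2 against cells without it.

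The most abundant 3p arm in cells with Ago2 was miR-295-3p, with the AAGUGCU seed. It stood at 243951, 238389, 234405, and 181033 TPM in WT libraries A to D, and at 181363, 233802, 189143, and 190624 TPM in CLIPΔ libraries A to D. In the *Ago2* KO libraries 1 to 4 it was at 83794, 84081, 84716, and 85895 TPM, and in the *Ago2* KO/CLIPΔ libraries 1 to 4 at 74078, 68371, 74243, and 70760 TPM. It ranked first of the 507 miRNAs by TPM in each library with Ago2 and held ranks from 2 to 3 in those without it. Every library without Ago2 lay below every library with it, and the 2 genotypes without Ago2 did not overlap. Of the 507 miRNAs, 48.7% did not overlap between the 8 libraries with and the 8 without Ago2, and 31.8% did not between the 2 genotypes without it.

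The next, miR-294-3p, carries the same seed. Its WT values were 87139, 81916, 97797, and 154526 TPM in libraries A to D, and its CLIPΔ values were 74895, 87496, 85039, and 91147 TPM. Library D stood highest in both genotypes. Without Ago2, miR-294-3p was at 34253, 31654, 30715, and 31290 TPM in the *Ago2* KO and at 26788, 25004, 25292, and 26901 TPM in the *Ago2* KO/CLIPΔ libraries. It went from the second rank among all miRNAs in each library with Ago2 to ranks from 7 to 10 in those without. As with miR-295-3p, the WT and CLIPΔ values overlapped, and the 2 genotypes without Ago2 did not.

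The third, miR-293-3p, has a seed of its own and went the other way. It was at 44331, 47294, 49773, and 41710 TPM in the WT and at 39352, 48355, 41753, and 30753 TPM in the CLIPΔ libraries, where the ranges overlapped. In the *Ago2* KO libraries it was at 112430, 99132, 114004, and 114550 TPM, and in the *Ago2* KO/CLIPΔ libraries at 98457, 100621, 101707, and 103312 TPM. It was the most abundant of all miRNAs in each of the 8 libraries without Ago2.

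The last of the abundant ones, miR-291a-3p, again has the AAGUGCU seed. It was at 11993, 12622, 14316, and 12873 TPM in the WT and at 8967, 16372, 11862, and 8958 TPM in the CLIPΔ libraries. In the *Ago2* KO it was at 18543, 12206, 17964, and 17714 TPM, with library 2 far below the others, and in the *Ago2* KO/CLIPΔ libraries at 16427, 15615, 17643, and 18240 TPM. The *Ago2* KO values overlapped those of the WT, through library 2.

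Both remaining members were rare. In the WT libraries miR-291b-3p was at 107, 114, 94.1, and 115 TPM, and in the CLIPΔ libraries at 158, 177, 195, and 173 TPM. Without Ago2 it stood at 42.8, 37.0, 35.4, and 28.7 TPM in the *Ago2* KO, and in the *Ago2* KO/CLIPΔ libraries at 40.5, 48.1, 33.4, and 24.4 TPM. These rest on 611 to 926 reads per WT library and 532 to 1375 per CLIPΔ library, but on 25 to 44 reads per library without Ago2. The antisense arm miR-292b-3p had 72 to 206 reads per library with Ago2 and 351 to 535 in those without. Its values were 32.7, 24.5, 23.4, and 31.9 TPM in the WT, 25.7, 19.4, 21.0, and 24.6 TPM in the CLIPΔ, 484, 533, 395, and 578 TPM in the *Ago2* KO, and 447, 577, 444, and 413 TPM in the *Ago2* KO/CLIPΔ libraries. Cells with and without Ago2 did not overlap in either of the 2 rare arms, which was so for 48.7% of all miRNAs.

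**Figure D1:**
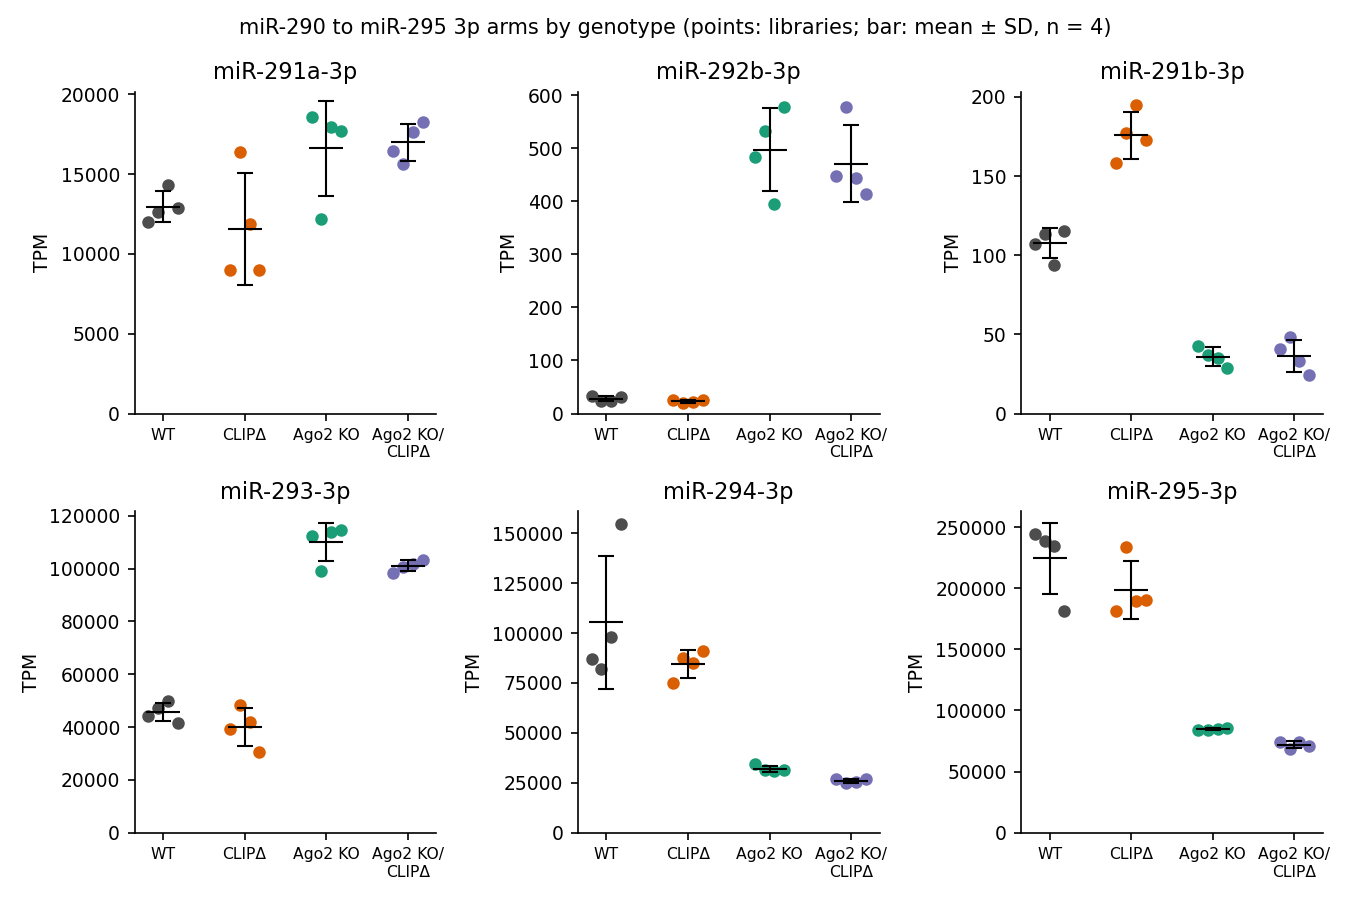
TPM (linear axes from 0) of the 6 3p arms in each small RNA-seq library, grouped by genotype, with the mean and SD of 4 libraries. miR-294-3p, miR-295-3p, and miR-291b-3p were lower in every library without Ago2 than in every library with it, whereas miR-293-3p and miR-292b-3p were higher.

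Within a genotype the order of the 6 levels in TPM was clear. TPM corrects for length only, and whether the adapter ligation captured the 6 sequences equally was not measured. In the WT and in the CLIPΔ libraries it ran miR-295-3p, miR-294-3p, miR-293-3p, miR-291a-3p, miR-291b-3p, and miR-292b-3p. In both genotypes without Ago2 it ran miR-293-3p, miR-295-3p, miR-294-3p, miR-291a-3p, miR-292b-3p, and miR-291b-3p. No pair of neighbours overlapped in range in any genotype. The closest pair was miR-293-3p over miR-295-3p in the *Ago2* KO, where the lower end of the first was 99132 TPM and the upper end of the second 85895 TPM. The gap was widest below miR-291a-3p, whose mean was 120-fold that of miR-291b-3p in the WT.

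Together the 6 arms made up 38.9% ± 0.655 (SD, n = 4) of the summed TPM in the WT and 33.6% ± 3.57 in the CLIPΔ libraries. They made up 24.4% ± 1.08 in the *Ago2* KO and 21.7% ± 0.437 in the *Ago2* KO/CLIPΔ libraries. The CLIPΔ libraries ranged widely, from 30.5% in library A to 38.7% in library B, and library B fell within the WT range of 38.1% to 39.7%. These shares are given as a description, since the sum runs over chosen members.

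What made up the sum also differed. Of the 6 arms' summed TPM, miR-295-3p and miR-294-3p together held 84.9% ± 1.02 in the WT and 84.6% ± 2.02 in the CLIPΔ libraries, but 47.9% ± 1.99 in the *Ago2* KO and 45.2% ± 1.05 in the *Ago2* KO/CLIPΔ libraries. The share of miR-293-3p was 11.8% ± 0.883, 11.9% ± 1.59, 45.1% ± 1.11, and 46.7% ± 0.989 in the same order. The ratio of miR-295-3p to miR-293-3p does not depend on how a library was scaled. It was 4.90 ± 0.494 in the WT and 5.04 ± 0.781 in the CLIPΔ, 0.772 ± 0.0511 in the *Ago2* KO, and 0.712 ± 0.0353 in the *Ago2* KO/CLIPΔ libraries (SD, n = 4).

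**Figure D2:**
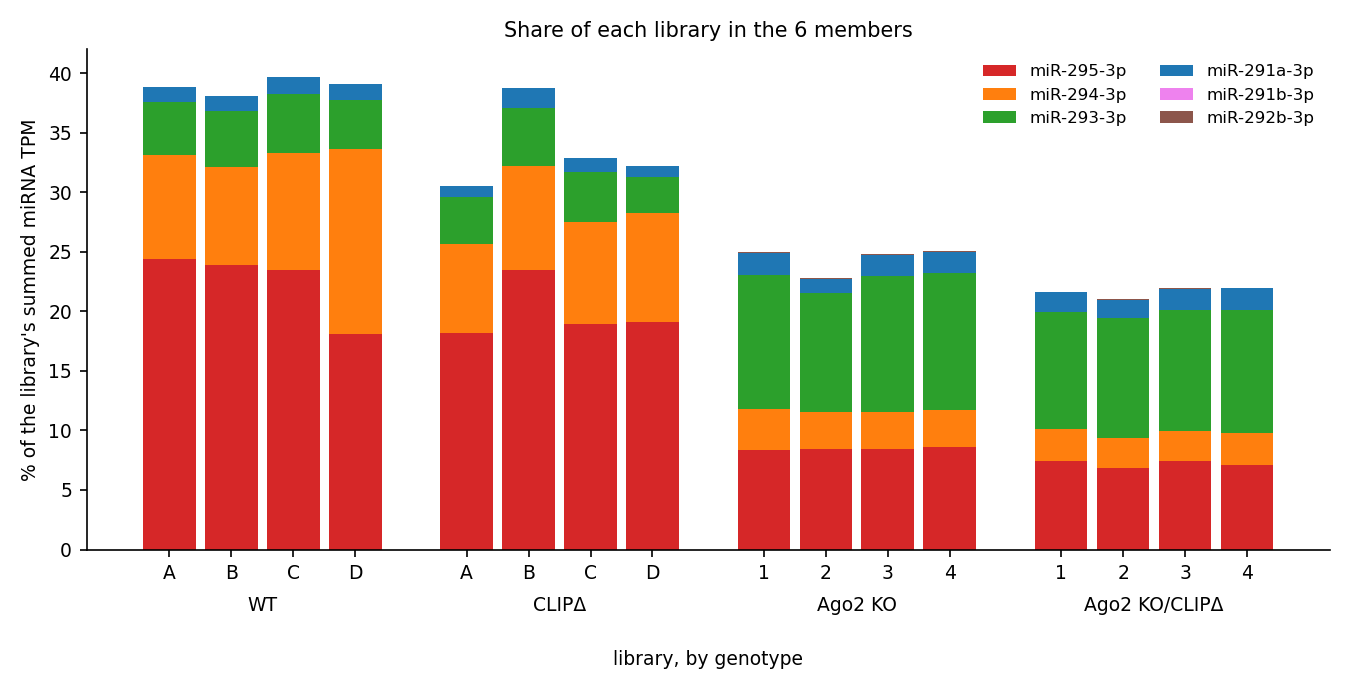
Share of each library's summed miRNA TPM (percent, bars from 0) held by the 6 3p arms, 1 bar per library. The total lay between 38.1% and 39.7% in the WT libraries and between 21.0% and 25.0% in the libraries without Ago2, in which miR-293-3p (green) was the largest piece.

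By seed, the 3 arms with AAGUGCU summed to 34.3% ± 0.680 of the TPM in the WT, 29.6% ± 3.08 in the CLIPΔ, 13.3% ± 0.375 in the *Ago2* KO, and 11.5% ± 0.395 in the *Ago2* KO/CLIPΔ libraries. Together with miR-302b-3p and miR-302d-3p, the other miRNAs found with that seed, they were 97.5% ± 0.273 of the group's TPM in the WT and 91.7% ± 0.604 in the *Ago2* KO. Names without a RefSeq sequence, among them miR-302a-3p (1992 ± 149 TPM in the WT and 1216 ± 158 TPM in the *Ago2* KO), could not be assigned to a seed and are left out of these shares. For the seed of miR-291b-3p, the member held 60.3% ± 7.39 of the TPM in the WT and 21.5% ± 3.28 in the *Ago2* KO, with miR-350-5p at 73.3 ± 27.1 TPM in the WT and 132 ± 20.3 TPM in the *Ago2* KO (SD, n = 4).

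The CLIPΔ and WT mESCs were compared to ask what the loss of the Trim71 site does when Ago2 is present. All miRNAs that averaged 100 TPM or more over the fitted libraries were tested with limma on log2(TPM + 1), using Benjamini-Hochberg adjustment over all of them and a threshold of 0.05. Of the 5 members tested, 1 passed, with 27.8% of all 227 miRNAs tested passing in this comparison (19.4% higher and 8.37% lower). That was miR-291b-3p, 108 ± 9.60 TPM in the WT and 176 ± 14.9 TPM in the CLIPΔ mESCs, where all 4 libraries lay above all 4 of the WT (log2 fold change 0.70, standard error 0.16, adjusted p = 0.00951). Of the 507 miRNAs, 29.2% did not overlap between these genotypes. The 4 abundant members had log2 fold changes from -0.27 to -0.17 and a lowest adjusted p of 0.331, while the median over all miRNAs tested was 0.042. When the letters of the columns entered the fit as a replicate block, the adjusted p of miR-291b-3p was 0.00229 and the calls among all miRNAs went from 63 to 125, with 1 member among them. Of the 63 calls, 69.8% were higher in the CLIPΔ mESCs, and 58.5% of 65 when libraries were scaled to the miRNAs outside the cluster.

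The same deletion in cells without Ago2 was tested between the *Ago2* KO/CLIPΔ and *Ago2* KO libraries. Of the 5 members tested, 2 passed, both lower, with 52.2% of all 232 miRNAs tested passing (21.6% higher and 30.6% lower). miR-294-3p fell from 31978 ± 1565 to 25996 ± 987 TPM (log2 fold change -0.30, standard error 0.064, adjusted p = 0.00149). miR-295-3p fell from 84622 ± 932 to 71863 ± 2828 TPM (log2 fold change -0.24, standard error 0.055, adjusted p = 0.00271). These small differences stood on a background that was itself below 0, with a median log2 fold change of -0.17 over all miRNAs tested. When the libraries were centred on their medians, which moved this value by 0.12, the share of higher calls went from 41.3% of 121 to 69.4% of 72, and neither member passed (adjusted p = 0.0604 and 0.192), and neither passed with the spread taken from all 16 libraries (adjusted p = 0.175 and 0.0955). Scaled to the miRNAs outside the cluster, both passed, at -0.37 and -0.31 (adjusted p = 0.000403 and 0.00051), and with miR-293-3p (-0.19, adjusted p = 0.0247) the count was 3. miR-293-3p had a log2 fold change of -0.12 (adjusted p = 0.105), and it passed without *Ago2* KO library 2 (adjusted p = 0.00152). miR-291a-3p, at 0.049, and miR-292b-3p, at -0.078, did not pass. miR-291b-3p was below 100 TPM here. Fitted with no minimum, its log2 fold change was -0.0030 (standard error 0.22).

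Losing Ago2 was examined against the WT, in 1 fit over all 16 libraries. In this comparison most miRNAs differed, 81.9% of the 249 tested passing, 47.4% of them tested higher and 34.5% tested lower. Of the 5 members tested, 2 were higher and 2 lower. miR-294-3p fell by 1.67 on the log2 scale (standard error 0.15, adjusted p = 1.12e-08), a mean 3.29-fold lower. miR-295-3p fell by 1.40 (standard error 0.097, adjusted p = 4.92e-10), a mean 2.65-fold lower. The other direction was taken by miR-293-3p, which rose 2.40-fold from 45777 ± 3507 to 110029 ± 7320 TPM (log2 fold change 1.27, standard error 0.11, adjusted p = 1.20e-08). The antisense arm miR-292b-3p rose 17.7-fold from 28.1 ± 4.84 to 497 ± 78.2 TPM (log2 fold change 4.10, standard error 0.17, adjusted p = 1.08e-12), but it was past the minimum of 100 TPM only through the libraries without Ago2 and so had to differ. For miR-291a-3p the log2 fold change stood at 0.34 with a standard error of 0.18 (adjusted p = 0.0796). It passed without *Ago2* KO library 2 (adjusted p = 0.0160) or without CLIPΔ library B (adjusted p = 0.0284), and turned to -0.057 when centred on the median. That centring moved the median of all miRNAs tested by -0.40 from 0.37. On the centred scale the log2 fold change was 0.87 for miR-293-3p and -2.07 for miR-294-3p. With a mean of 89.0 TPM over the 16 libraries, miR-291b-3p missed the minimum, and with no minimum its log2 fold change was -1.56 (standard error 0.20, adjusted p = 1.06e-06).

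Between the *Ago2* KO/CLIPΔ and CLIPΔ mESCs, where the Trim71 site is gone from both, 83.1% of the 249 miRNAs tested passed, 47.8% of them tested higher and 35.3% tested lower. All 5 members tested passed. miR-294-3p fell by 1.70 (standard error 0.15, adjusted p = 6.95e-09) and miR-295-3p by 1.46 on the log2 scale (standard error 0.097, adjusted p = 1.76e-10). miR-293-3p rose by 1.35 (standard error 0.11, adjusted p = 3.68e-09) and miR-292b-3p by 4.31 (standard error 0.17, adjusted p = 2.50e-13), the latter again past the minimum only through the libraries without Ago2. miR-291a-3p rose from 11540 ± 3500 to 16981 ± 1183 TPM, or by 0.60 on the log2 scale (standard error 0.18, adjusted p = 0.00428), although the CLIPΔ library B overlapped the other group. Its adjusted p was 0.165 after centring on the median and 0.0981 when libraries were scaled to the miRNAs outside the cluster. With no minimum, the log2 fold change of miR-291b-3p was -2.27 (standard error 0.20, adjusted p = 5.44e-09).

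**Figure D3:**
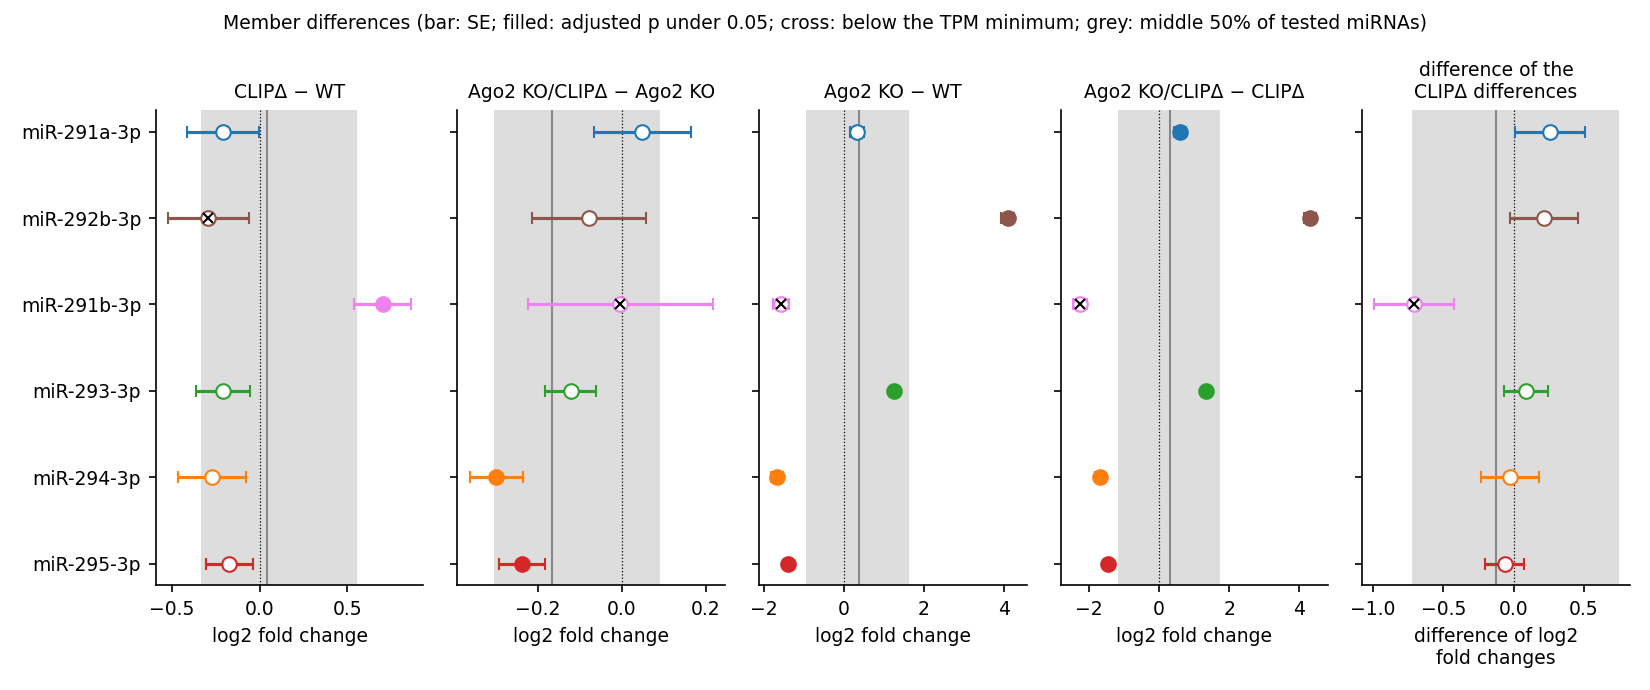
Log2 fold change of the 6 3p arms in each comparison (points, bars give the standard error), with filled points past an adjusted p of 0.05 and crosses for arms below the TPM minimum, fitted without it. The grey band holds the middle 50% of all miRNAs tested and the grey line their median, and the horizontal scales differ between panels. In the panels of cells without against cells with Ago2, miR-294-3p (-1.67 and -1.70) and miR-295-3p (-1.40 and -1.46) lay below the band and miR-292b-3p (4.10 and 4.31) far above it.

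Whether the deletion of the Trim71 site acted differently without Ago2 was tested directly, as the difference of the 2 deletion effects. Of all 249 miRNAs tested, 49.4% passed (22.9% higher and 26.5% lower), against 0 of the 5 members in limma, of which 0 had an unadjusted p under 0.05. The difference was -0.027 for miR-294-3p (95% interval -0.46 to 0.41), -0.064 for miR-295-3p (-0.35 to 0.22), 0.087 for miR-293-3p (-0.25 to 0.42), 0.22 for miR-292b-3p (-0.30 to 0.73), and 0.26 for miR-291a-3p (-0.27 to 0.78). The intervals are too wide to call the effects alike. For miR-291b-3p, which was called in cells with Ago2, the difference with no minimum was -0.71 (95% interval -1.30 to -0.11, adjusted p = 0.0547), and it rests on 25 to 44 reads per library without Ago2.

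Of 5 hairpins in the cluster, both arms were in the table, so that the choice between arms could be followed within a library, where the library's scaling cancels. In miR-294 and miR-295 nearly all TPM was in the 3p arm, 99.0% ± 0.0823 and 99.2% ± 0.152 in the WT and 96.3% ± 0.403 and 97.2% ± 0.389 in the *Ago2* KO (SD, n = 4). miR-293 had 71.2% ± 0.779 in its 3p arm in the WT and 65.9% ± 2.05 in the *Ago2* KO. In miR-291a the 5p arm was the larger one in the WT, where the 3p arm held 24.5%, 29.0%, 27.9%, and 23.0% in libraries A to D. It held 52.6%, 39.6%, 53.9%, and 52.3% in the *Ago2* KO libraries 1 to 4, above every WT library.

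The hairpin of miR-291b changed most. Its 3p arm held 55.2%, 65.7%, 53.8%, and 45.6% of both arms in the WT libraries A to D, and 52.9%, 60.3%, 52.5%, and 45.9% in the CLIPΔ libraries. Without Ago2, in the *Ago2* KO libraries 1 to 4, it held 4.49%, 2.96%, 3.95%, and 2.83%, and in the *Ago2* KO/CLIPΔ libraries 4.21%, 4.97%, 4.09%, and 3.00%. These shares without Ago2 rest on only 25 to 44 reads of the 3p arm per library. The arms moved in opposite directions, since miR-291b-5p was at 91.2 ± 33.2 TPM in the WT and 992 ± 155 TPM in the *Ago2* KO. The 5p arms of miR-291a and miR-291b, with the seed again in capitals, are shown because they are nearly the same.
miR-291a-5p: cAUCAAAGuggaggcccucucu
miR-291b-5p: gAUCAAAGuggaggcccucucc
They differ only in their first and last base (C1G and U22C), and miR-291a-5p was the far more abundant, at 36969 ± 4970 TPM in the WT and 16718 ± 1370 TPM in the *Ago2* KO. The level of miR-291b-5p, and with it the 3p share of miR-291b, is uncertain where a read could be assigned to either.

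On their own TPM, the 5p arms of the 5 hairpins gave 3 higher (miR-291b-5p 3.48, miR-293-5p 1.62, and miR-295-5p 0.39 on the log2 scale) and 1 lower (miR-291a-5p -1.14) in the *Ago2* KO against the WT, where 47.4% of all miRNAs tested were higher and 34.5% lower. They gave 2 higher and 1 lower in the *Ago2* KO/CLIPΔ against the CLIPΔ mESCs, where 47.8% of all were higher and 35.3% lower. In the test of the deletion, 0 of 5 passed in cells with Ago2 by limma (1 at an unadjusted p under 0.05, miR-291b-5p, with a log2 fold change of 0.83 and an adjusted p of 0.0520) and 1 in cells without it (miR-291a-5p, -0.27, adjusted p = 0.0108), beside 27.8% and 52.2% of all miRNAs tested. For the difference of the deletion effects, 1 of 5 passed in limma, miR-291b-5p at -1.04 (adjusted p = 0.0101). Of all miRNAs tested, 49.4% passed, 26.5% lower and 22.9% higher. The 3p arm of miR-291b had the same sign but was below the minimum and did not pass when fitted without it (adjusted p = 0.0547), with 25 to 44 reads per library without Ago2.

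The log2 ratio of the 3p to the 5p arm was tested with limma over the 132 hairpins with at least 10 TPM in each arm. In the *Ago2* KO against the WT, all 5 cluster hairpins passed, with 80.3% of all hairpins tested passing. The log2 ratio fell by 5.05 for miR-291b (standard error 0.27, adjusted p = 6.54e-12) and by 1.98 for miR-294 (standard error 0.18, adjusted p = 1.15e-08). For miR-295 it fell by 1.79 (standard error 0.18, adjusted p = 6.66e-08). It rose by 1.48 for miR-291a (standard error 0.30, adjusted p = 0.000228). For miR-293 the difference was -0.35 (adjusted p = 0.0429), a call that was lost in 12 of the 16 fits that left out 1 library. The median over all hairpins was 0.85, toward the 3p arm. Between the *Ago2* KO/CLIPΔ and CLIPΔ mESCs, again all 5 passed in the same directions, with 85.6% of hairpins passing. The deletion of the Trim71 site moved none of the 5 ratios past the threshold, with 0.758% of hairpins passing in cells with Ago2 and 0% in cells without it in limma. At an unadjusted p under 0.05 these were 17 and 2 of the 132 hairpins, of which 0 were of the cluster.

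**Figure D4:**
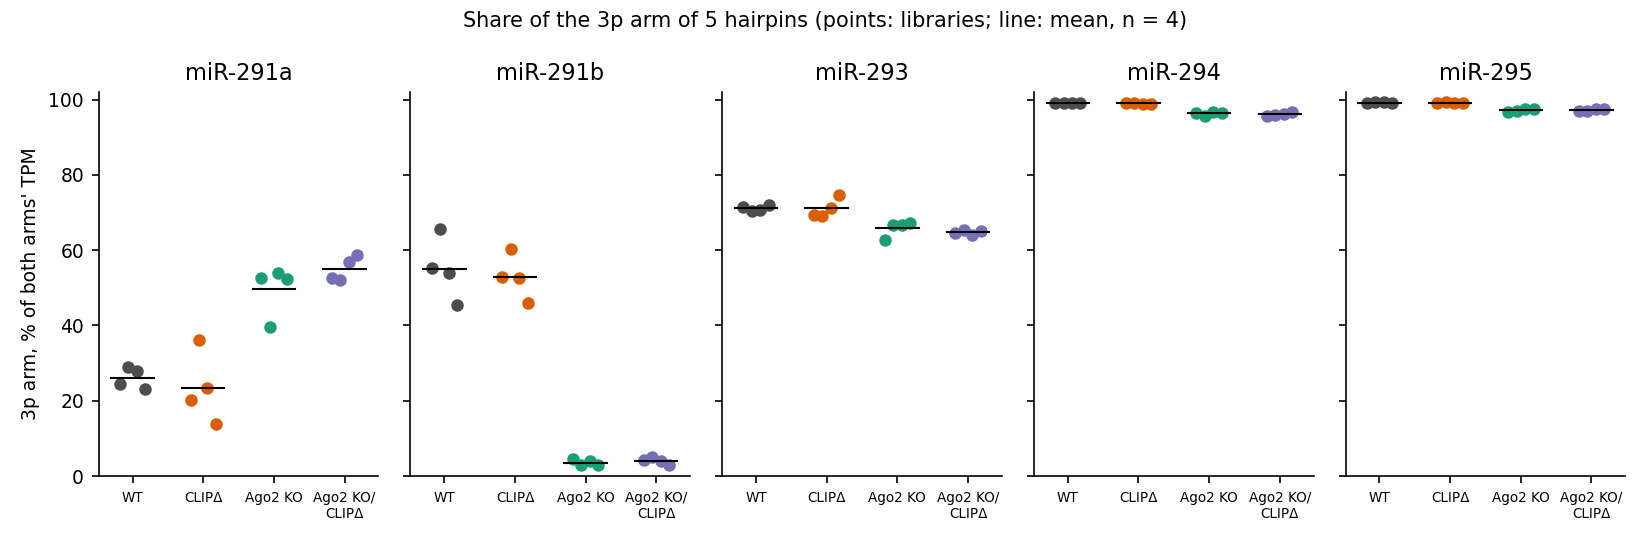
Share of the 3p arm in the summed TPM of both arms (percent, axis from 0) for the 5 hairpins with both arms in the table, per library and genotype, with the mean of 4 libraries as a line. The 3p share of miR-291b went from 45.6% to 65.7% in the WT to at most 4.97% in every library without Ago2, while that of miR-291a rose.

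The 10 relatives with the AAGUGC motif near the 5' end (the 4 3p arms of miR-302a to miR-302d, and miR-17-5p, miR-20a-5p, miR-20b-5p, miR-93-5p, miR-106a-5p, and miR-106b-5p) were a second list. In the CLIPΔ against the WT mESCs, 3 of the 9 tested passed, all lower, where 8.37% of all miRNAs tested were called lower, and the median log2 fold change was -0.33 against 0.042 over all. They were miR-302a-3p (-1.53), miR-302b-3p (-1.61), and miR-302d-3p (-1.52), each larger in size than the difference of any member. In the *Ago2* KO against the WT, 4 of 10 were higher and 5 lower, beside 47.4% and 34.5% of all miRNAs tested, with a median of -0.34 against 0.37 over all. Among the higher was miR-302c-3p, at 90.4 ± 37.7 TPM in the WT, 37.6 ± 3.44 in the CLIPΔ, and 185 ± 20.9 in the *Ago2* KO. It was past the minimum only through the libraries without Ago2 and so had to differ. Below, it is also counted as higher against the CLIPΔ mESCs and in the difference of the deletion effects. miR-302b-3p rose from 922 ± 193 to 7820 ± 613 TPM, whereas miR-302d-3p, with the same seed, fell from 7935 ± 1103 to 4226 ± 633 TPM (SD, n = 4). These 2, like miR-295-3p and miR-291a-3p, share a seed. In the *Ago2* KO/CLIPΔ against the CLIPΔ mESCs, 6 of 10 were higher and 3 lower, beside 47.8% and 35.3% of all, with a median of 0.52 against 0.31. Against the *Ago2* KO, 6 of 10 were lower and 0 higher by limma, beside 30.6% and 21.6% of all, with a median of -0.21 against -0.17, and 7 had an unadjusted p under 0.05. In the test of the difference of the deletion effects, 4 of the 10 were higher and 1 lower, beside 22.9% and 26.5% of all, with a median of 0.11 against -0.13.

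By Pearson's r over the 16 libraries, the 5 miRNAs outside the members whose log2(TPM + 1) was most like the mean of the 5 members past the minimum were miR-302b-3p (0.968), miR-195a-5p (0.965), miR-130a-5p (0.965), miR-145a-3p (0.962), and miR-362-5p (0.961). The 16 libraries fall into those with and those without Ago2, and the deviations from the genotype means were less alike, with r from 0.331 for miR-302b-3p to 0.727 for miR-362-5p. Among the members themselves the r was 0.942 for miR-294-3p with miR-295-3p over the 16 libraries but -0.613 for their deviations within genotypes, in which library D of the WT is high in the first and low in the second. For miR-291a-3p with miR-293-3p it was 0.812 over the libraries and 0.809 within genotypes. The mean over the 5 members ran with miR-293-3p (r = 0.965), miR-292b-3p (0.932), and miR-291a-3p (0.830) and against miR-294-3p (-0.822) and miR-295-3p (-0.854), so the miRNAs most like it were unlike these last. Among the 5, miR-292b-3p had the largest fold change and was past the minimum only through the libraries without Ago2. These values share libraries and depth and are given without a test.

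The host lncRNA *D7Ertd143e*, named here after its values were seen, was at 148 and 82.4 TPM in the 2 WT RNA-seq libraries and at 87.1 and 53.1 TPM in the 2 CLIPΔ libraries. It was between 14.2 and 23.7 TPM in the 4 *Ago2* KO and between 11.9 and 26.1 TPM in the 4 *Ago2* KO/CLIPΔ libraries. How many of the 15034 genes in the RNA-seq data differed in this way was not counted. Of the 3p arms from its exon, miR-291b-3p, miR-294-3p, and miR-295-3p were lower in every library without Ago2 than in every library with it. miR-293-3p was higher. Such a lack of overlap was seen for 48.7% of the 507 miRNAs. The other arm, miR-291a-3p, overlapped and had higher means without Ago2. These were 16607 TPM in the *Ago2* KO against 12951 in the WT, and 16981 in the *Ago2* KO/CLIPΔ against 11540 in the CLIPΔ libraries. The part of *D7Ertd143e* in the levels of these arms was not tested.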

How the data were processed

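Small RNA-seq (NEBNext adapter ligation) and RNA-seq of the 4 genotypes were used. The authors trimmed reads with cutadapt, mapped them to mm10 with HISAT2 2.1.0, counted the longest transcript with HTSeq, and deposited TPM values for each library, with no pooling. The deposited TPM sums to nearly the same total in each library and holds no counts, and reads were recovered only to give the depth, which limits counting error alone. Columns named d3 were read as CLIPΔ, the one genotype left without columns, and lettered columns were assigned to a genotype only.

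The members and lists were chosen with earlier results of these data known. Named miRNAs are all member 3p arms, the 5p arms of the same hairpins, miRNAs with a member's seed, the 10 relatives, and the 5 most alike by Pearson's r. limma 3.58.1 in R 4.3.3 (lmFit, eBayes with trend) was run on log2(TPM + 1), since TPM values do not meet the count model of the edgeR test that the authors used. Fold changes on this scale understate those of low miRNAs. Pairwise fits of the CLIPΔ effect used the 8 libraries compared, and the others all 16. The fitting function was tested on simulated data. WT and CLIPΔ libraries sharing a column letter deviated together from their genotype means (correlations 0.349 to 0.744, against -0.689 to 0.307 for pairs that share none). In the genotypes without Ago2 this was not clear, with 0.158 to 0.517 for a shared number and -0.529 to 0.603 for pairs that share none. The criterion was that every matched pair exceeds 0.1. By it, a fit with letters and numbers as a block was run beside each test of the CLIPΔ effect. Other alternatives were a pseudocount of 10, no TPM minimum, 3 scalings, another set of libraries, an arm minimum of 100 TPM, no trend, and leaving out each library. CLIP-seq peaks were not used here. Figures were drawn with matplotlib 3.10.9.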

Additional observations from a re-analysis of the deposited data

Results flagged for a closer look

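In 48 sets of 4 libraries (member TPM, 3p shares of hairpins, and the share of the 6 arms in the library), 7 held a library far from the other 3 by Dixon's criterion. Chance gives about 1 in 20 sets, and the sets share libraries and are not independent. Of the 7, 5 were *Ago2* KO library 2, which was lowest of its genotype in miR-291a-3p (12206 TPM, the others 17714 to 18543), in miR-293-3p (99132 TPM, the others 112430 to 114550), in the 3p share of miR-291a (39.6%, the others 52.3% to 53.9%), in the 3p share of miR-294 (95.7%, the others 96.5% to 96.6%), and in the share of the 6 arms (22.8%, the others 24.8% to 25.0%). *Ago2* KO library 1 was lowest in the 3p share of miR-293 (62.8%, the others 66.6% to 67.3%). WT library D was lowest in miR-295-3p (181033 TPM, the others 234405 to 243951).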

How the results depend on the processing

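Of 1021 comparisons of a result with an alternative, 969 kept direction and side of the threshold, 18 lost the threshold, 4 gained it, 27 changed sign, and 3 counts moved by over 1.5 times. Of those that changed sign, 0 had passed. The count of members in CLIPΔ against WT went from 1 to 0 in the fit on all 16 libraries, where miR-291b-3p missed the minimum. The count in *Ago2* KO/CLIPΔ against *Ago2* KO went from 2 to 0 with median centring and to 0 in the fit on all 16 libraries. Leaving out 1 library gave counts of 1 to 1 and 2 to 3 for these, 4 to 5 for *Ago2* KO against WT, 5 to 5 for *Ago2* KO/CLIPΔ against CLIPΔ, and 0 to 0 for the difference of the deletion effects. Arm ratio counts were 0 to 0 for both deletion comparisons, 4 to 5 for *Ago2* KO against WT, and 5 to 5 for *Ago2* KO/CLIPΔ against CLIPΔ.

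With the replicate block, no member call changed, and the calls among all miRNAs were 125 in CLIPΔ against WT. That count was also 136 with no minimum and 116 with all 16 libraries, against 63. For *Ago2* KO/CLIPΔ against *Ago2* KO, 121 became 72 with median centring and 55 with all 16 libraries. With no minimum, 204 became 362, 207 became 377, and 123 became 211 in *Ago2* KO against WT, *Ago2* KO/CLIPΔ against CLIPΔ, and the difference of effects.

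Signs turned in *Ago2* KO/CLIPΔ against *Ago2* KO for miR-291a-3p (-0.020, scaled outside the cluster), miR-292b-3p (0.046), and miR-293-3p (0.0029, both centred), in *Ago2* KO against WT for miR-291a-3p (-0.057, centred), and in the difference of effects for miR-294-3p (0.032 scaled outside, 0.064 centred) and miR-295-3p (0.027, centred). Leaving out 1 library, miR-291a-3p ran from -0.092 to 0.11 in the first of these, and the difference of effects from -0.033 to 0.18 for miR-293-3p, -0.23 to 0.078 for miR-294-3p, and -0.11 to 0.036 for miR-295-3p. Arm ratios ran from -0.31 to 0.081 (miR-291b), -0.088 to 0.047 (miR-293), -0.17 to 0.0085 (miR-294), and -0.18 to 0.023 (miR-295) in CLIPΔ against WT, and from -0.058 to 0.087 (miR-295) in *Ago2* KO/CLIPΔ against *Ago2* KO. With 100 TPM asked of both arms, miR-291b was not tested. The causes were not tested. Depth limits miR-291b-3p most, with 25 to 44 reads per library without Ago2.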
